A study of Mus musculus with 15 samples.

Results

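The enzymes that make or remove 2-hydroxyglutarate (2HG) were followed in H3K4me3 ChIP–seq of mBA cells through 8 genes: D2hgdh, Adhfe1, Idh1, Idh2, Ldha, Mdh1, Mdh2 and Ogdh, of 21770 annotated protein-coding genes. They were chosen by the reaction that each enzyme catalyses, and a gene was given every peak that overlapped the 2000 bp on either side of any of its annotated transcript starts in GRCm39. Genes without such a peak were kept. mBA cells are brown preadipocytes of newborn mice, immortalized with SV40 large T antigen from a lentivirus with the PGK promoter and then differentiated into brown adipocytes, although the sample labels call them primary. There were 4 ChIP samples and 1 input each of untreated wild-type cells (WT), wild-type cells treated with cell-permeable octyl d-2HG in DMSO during differentiation (WT + 2HG), and cells lacking the mitochondrial protease CLPP (CLPP-KO). All were grown in high-glucose DMEM without pyruvate, but only the CLPP-KO cells also received uridine. According to the paper, the mBA cells were derived separately from control and knockout mice. Genotype, uridine and cell line therefore cannot be told apart. The labels give no vehicle to the WT cells. The authors called peaks on the 4 samples of a condition together, leaving 1 list per condition, so there is no spread between replicates, no test and no p-value for any difference below.

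2HG is a reduced form of 2-oxoglutarate, the citric acid cycle intermediate also called α-ketoglutarate, and exists as the mirror-image d and l forms. D2HGDH is the mitochondrial dehydrogenase that oxidizes d-2HG back to 2-oxoglutarate, whereas ADHFE1 forms d-2HG while it oxidizes 4-hydroxybutyrate. The isocitrate dehydrogenases IDH1 and IDH2 make 2-oxoglutarate and, in certain cancer mutants, large amounts of d-2HG, and lactate and malate dehydrogenases can reduce 2-oxoglutarate to l-2HG as a side reaction. OGDH, the first subunit of the 2-oxoglutarate dehydrogenase complex, consumes 2-oxoglutarate in the cycle. H3K4me3 is trimethylation of histone H3 at lysine 4, which marks active and poised promoters, and a peak of it is not a measure of the transcript or the enzyme.

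A promoter peak was present for 6 of the 8 genes in WT, 6 in the 2HG-treated cells and 7 in CLPP-KO. The corresponding shares of all protein-coding genes were 51.3% in WT, 56.4% after 2HG treatment and 58.2% in CLPP-KO. D2hgdh had no promoter peak in any list, and Mdh1 had one only in CLPP-KO. In WT + 2HG none of the members without a WT peak acquired one, against 11.6% of coding genes without a WT peak. In CLPP-KO 1 of the 2 did, against 14.9%. No gene of the 8 lost its peak in either treated list, where 0.914% (WT + 2HG) and 0.672% (CLPP-KO) of coding genes with a WT peak did. When the peak had to cover a start of the gene itself, the counts were 5, 5 and 6, because the peak given to Adhfe1 covered none of its starts. The shares above belong to the wider window. By the stricter rule, 9768 of 21770 coding genes had a peak in both WT and WT + 2HG, and 9780 in both WT and CLPP-KO.

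D2hgdh and Adhfe1, which had no peak on a start of their own in any list, had fewer CG dinucleotides around the canonical start than the other 6 genes. The stretches below lie directly upstream of the canonical start that GENCODE assigns, contain no annotated exon, and are shown 5′ to 3′ on the gene's strand with each CG dinucleotide in capitals. They are D2hgdh (chr1:93752774-93752931, plus strand, GRCm39) and Adhfe1 (chr1:9617973-9618172, plus strand), which had no peak on a start of their own, beside Idh1 (chr1:65218341-65218488, minus strand) and Mdh2 (chr5:135807241-135807291, plus strand), which had one in every list. The D2hgdh and Idh1 stretches lie inside the annotated gene, between exons of transcripts that start further upstream, and the Adhfe1 and Mdh2 stretches lie before the first annotated start of the gene.
D2hgdh: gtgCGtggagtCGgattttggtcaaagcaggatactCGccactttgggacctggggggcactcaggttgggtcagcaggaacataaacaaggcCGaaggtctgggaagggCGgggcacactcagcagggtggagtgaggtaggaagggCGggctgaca
Adhfe1: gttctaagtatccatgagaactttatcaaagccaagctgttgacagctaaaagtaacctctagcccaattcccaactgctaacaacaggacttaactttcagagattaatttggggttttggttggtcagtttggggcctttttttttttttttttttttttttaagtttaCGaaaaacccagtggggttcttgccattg
Idh1: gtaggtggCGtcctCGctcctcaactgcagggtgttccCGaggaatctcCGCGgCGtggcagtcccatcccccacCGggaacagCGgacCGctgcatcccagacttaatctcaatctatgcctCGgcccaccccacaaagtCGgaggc
Mdh2: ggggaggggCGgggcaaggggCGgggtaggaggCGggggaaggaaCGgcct

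The D2hgdh stretch held 6 CG in 158 bases, the Adhfe1 stretch 1 in 200, the Idh1 stretch 11 in 148 and the Mdh2 stretch 4 in 51. In the full window of 300 bases, from 250 before the canonical start to 50 after it, the CG number was 1 for Adhfe1, 12 for D2hgdh, 21 for Idh2, 21 for Mdh1, 22 for Ogdh, 23 for Idh1, 24 for Mdh2 and 31 for Ldha. The median over 21770 coding genes was 11. D2hgdh thus lay close to the median while Adhfe1 had more CG than only 5.05% of coding genes. In CLPP-KO the share of coding genes with a promoter peak was 12.5% for windows of 0 to 4 CG, 75.2% for 10 to 14, 92.6% for 20 to 24 and 97.7% for 30 or more, and the WT shares were 9.01, 63.8, 84.7 and 93.1%. These shares count any peak within 2000 bp of a start, a rule by which Adhfe1 was itself marked in every list. Shares for peaks that cover a start were not computed by CG number. Of coding genes in the CG range of D2hgdh, 22.3% had a promoter peak in no list. Mdh1 was without a WT peak in a CG range in which 84.7% of coding genes had one.

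**Figure D1:**
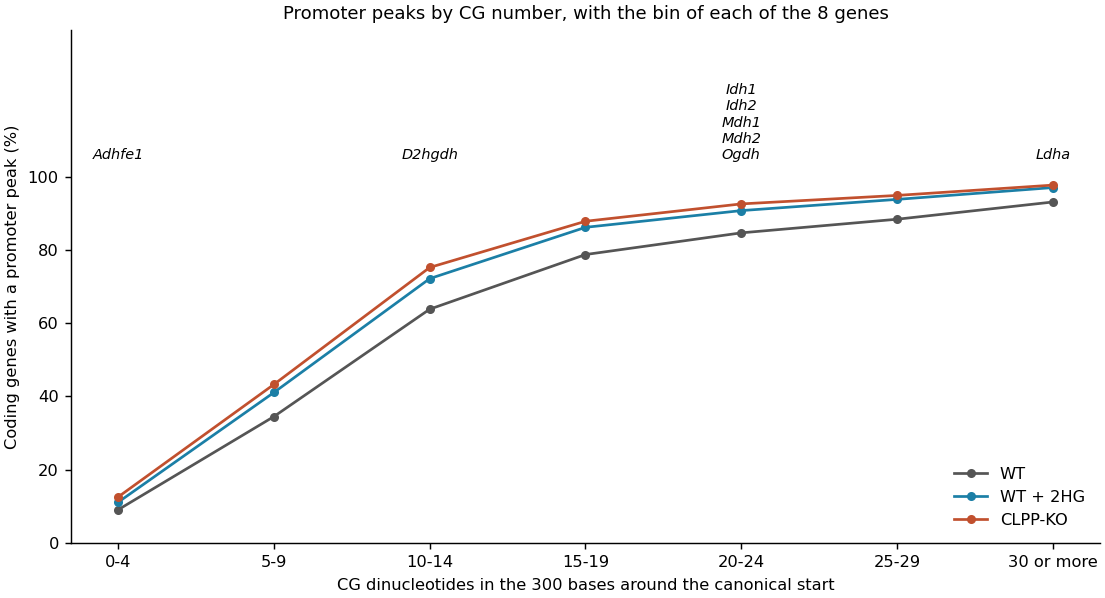
Share of coding genes with a promoter peak (y axis, %) by the number of CG dinucleotides in the 300 bases around the canonical start (x axis), with 1 line per list and the names of the 8 genes above the bin they fall in. The share climbs from 9.01% to 93.1% in WT, with Adhfe1 in the lowest bin, D2hgdh in the middle and Ldha in the highest. A promoter peak here is any peak within 2000 bp of a start, and by this rule Adhfe1 is marked.

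Short motifs were searched in the same windows on both strands. TATAAA, the core of the TATA box, was found in Adhfe1 and in none of the other genes, and 13.2% of all coding windows held it. Neither of its 2 matches in Adhfe1 lies within the 200 bases printed above, directly upstream of the canonical start. GGGCGG, the core of the GC box, was found in 6 of the 8, all except Adhfe1 and Ogdh, against 42.5% of all windows. CACGTG, the E-box bound by MYC, USF and related factors, was found in Ldha, at 2 places, and 7.81% of all windows held it. No window of the 8 held TGATGCAA, a site of the stress factor ATF4 and its partners (0.992% of all windows), or GCATGCGC, the core of the NRF1 site (3.68%). A match describes letters in the window and not a bound factor.

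Among the genes of d-2HG itself, D2hgdh (chromosome 1, 93751963 to 93786214, plus strand) had neither a promoter peak nor a peak in its gene body in any list. Its 24 distinct annotated starts reach from 93751963 to 93757519. The nearest listed peak lay 20652 bp from the canonical start in WT, 20472 bp in the 2HG-treated cells and 20517 bp in CLPP-KO. This peak belonged to Ing5, which encodes a chromatin reader of the inhibitor of growth family, and stood at area percentiles 51.0, 62.5 and 73.3 in the respective lists. The percentile is the share of peaks in the same list whose area under the curve, the authors' signal value, was equal or smaller. Since a list holds only peaks past the authors' threshold, with a lowest area of 200.02 to 200.04, signal below that threshold at D2hgdh was not detectable here, which does not show that H3K4me3 was absent.

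Adhfe1 (chromosome 1, 9618173 to 9651272, plus strand) was assigned 1 peak in each list by the window of 2000 bp. The peak spanned 1306 bp in WT, 1389 bp after 2HG treatment and 1567 bp in CLPP-KO. Its area percentile was 83.3 in WT, 85.5 in the 2HG-treated cells and 77.4 in CLPP-KO. However, the peak covered none of the 25 annotated starts of Adhfe1, ending 1266 bp upstream of the nearest one in WT, 1215 bp after 2HG treatment and 1019 bp in CLPP-KO. Instead it covered the starts of Rrs1, which encodes a ribosome biogenesis factor, and of the non-coding gene 2610203C22Rik, and its summit lay 307, 285 and 132 bp from an Rrs1 start. With a window of 1000 bp or with each peak given to the gene of the nearest start, Adhfe1 had no peak in any list. Adhfe1 was thus the member nearest to the limit of the window on the inside, whereas D2hgdh had its nearest peak far outside it. The values given for Adhfe1 are therefore those of a peak on Rrs1 starts.

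**Figure D2:**
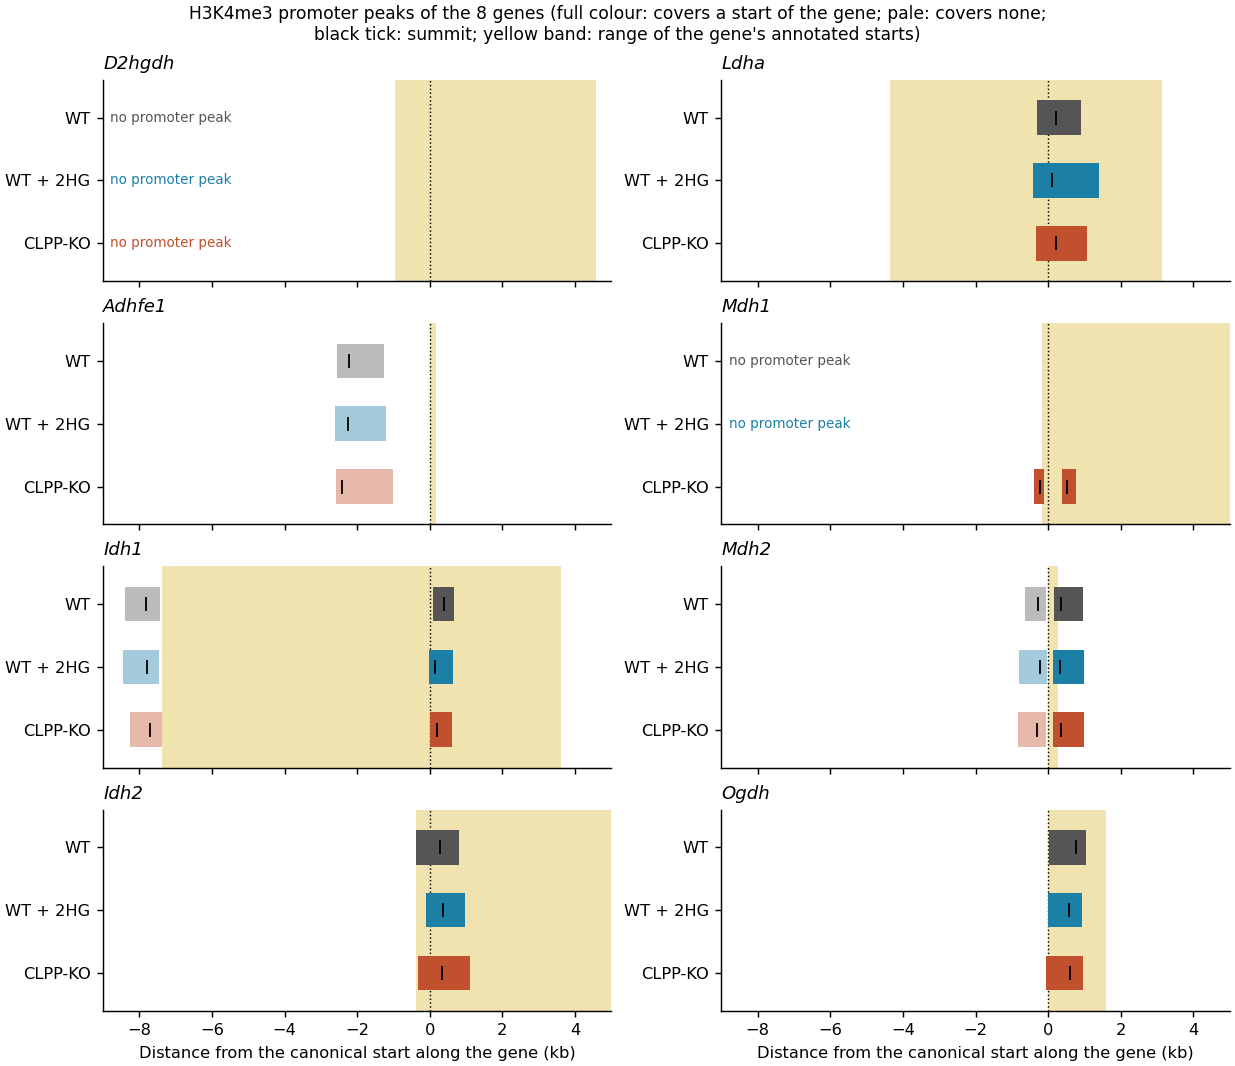
Position of each promoter peak along the gene (x axis, kb from the canonical start, positive into the gene) in the 3 lists (y axis), for each of the 8 genes. Full colour marks peaks that cover an annotated start of the gene, pale colour peaks that cover none, black ticks the summits, and the yellow band the range of annotated starts, which runs past the axis for Idh2 and Mdh1. All peaks of Adhfe1, the upstream peaks of Idh1 and those of Mdh2 cover no start of their gene, and D2hgdh has no peak.

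Idh1 (chromosome 1, 65196781 to 65225721, minus strand), the cytosolic NADP-dependent isocitrate dehydrogenase, had 2 peaks in each list, far apart. The peak beside the canonical start was 577 bp wide in WT, 661 bp in the 2HG-treated cells and 589 bp in CLPP-KO, and stood at percentiles 31.7, 28.6 and 39.0. It covered 4, 8 and 7 of the 19 annotated Idh1 starts, respectively. The stronger peak lay more than 7 kb upstream and entered through the most distal annotated Idh1 start, from which it was separated by 46 bp in WT, 68 bp after 2HG treatment and 6 bp in CLPP-KO. It covered the start of Pikfyve, which encodes a phosphoinositide kinase of endosomes, and measured 976, 1015 and 872 bp at percentiles 79.3, 65.4 and 70.3. The rule takes the strongest peak, so the percentile of Idh1 differed from WT by −13.96 points in the 2HG-treated cells and by −9.07 points in CLPP-KO. For the peak on its own starts the difference was −3.03 after 2HG treatment and 7.32 in CLPP-KO, the latter of opposite sign.

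Idh2 (chromosome 7, 79741431 to 79765535, minus strand), the mitochondrial counterpart, had 1 peak in each list, and no other gene started inside it. It was 1186 bp wide in WT, 1059 bp in the 2HG-treated cells and 1438 bp in CLPP-KO, and covered 16, 15 and 16 of its 21 starts. Its percentile was 84.4 in WT, 80.4 after 2HG treatment and 83.3 in CLPP-KO. The differences from WT were −4.05 points in WT + 2HG, where 21.2% of coding genes with a peak in both lists had a lower one, and −1.08 points in CLPP-KO, where 25.4% did.

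Ldha (chromosome 7, 46490899 to 46505061, plus strand), the lactate dehydrogenase subunit that favours lactate formation, had the highest WT percentile of the 8 genes. The percentile was 89.4 in WT, 83.8 after 2HG treatment and 72.6 in CLPP-KO, differences of −5.65 and −16.85 points. The deposited area, not scaled between lists, was 7837, 11575 and 9938, so the lower percentile is a lower rank and not a smaller area. Of coding genes with a peak in both lists, 17.1% had a lower difference than Ldha in the 2HG-treated cells and 2.01% in CLPP-KO. Its width went the other way. The peak measured 1218 bp in WT, 1821 bp after 2HG treatment and 1404 bp in CLPP-KO, and its edge inside the gene lay 913, 1415 and 1058 bp from the canonical start. The gain of 603 bp in WT + 2HG exceeded that of 92.0% of coding genes, and its summit lay 205, 100 and 205 bp inside the gene.

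Mdh1 (chromosome 11, 21506423 to 21522367, minus strand), the cytosolic malate dehydrogenase of the malate–aspartate shuttle, had no peak within 2000 bp of its 11 starts in WT or WT + 2HG. The nearest peak lay 200678 bp away in WT and 200834 bp away in WT + 2HG, at Ugp2, which encodes UDP-glucose pyrophosphorylase. In CLPP-KO there were 2 small peaks of 398 and 268 bp, with areas of 384.3 and 230.5 and percentiles of 8.08 and 1.97. The lower of these areas was just above the lowest of the list. The larger peak covered 4 Mdh1 starts and also the start of Wdpcp, a planar cell polarity gene transcribed in the opposite direction, and its summit was 10 bp from that Wdpcp start. With a summit −log10 p of at least 5, an area of at least 1000, or lists reduced to their 12342 strongest peaks, Mdh1 had no promoter peak in CLPP-KO.

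Mdh2 (chromosome 5, 135807292 to 135820882, plus strand), the mitochondrial malate dehydrogenase, had 2 peaks in each list, one on each side of the canonical start. The upstream peak measured 581 bp in WT, 770 bp in the 2HG-treated cells and 768 bp in CLPP-KO. It covered a start of Styxl1, a pseudophosphatase gene, and no Mdh2 start, and stood at percentiles 46.4, 56.6 and 59.2. The downstream peak covered 11 of the 12 Mdh2 starts and was 822, 879 and 872 bp wide. Its percentile was 76.9 in WT, 65.0 after 2HG treatment and 59.2 in CLPP-KO. The within-list percentiles of the flanking peaks therefore differed from WT in opposite directions, although the deposited area, which is not scaled between lists, was larger in both treated lists for each of them. Within the CLPP-KO list the areas were nearly the same, 7295 upstream and 7296 downstream. The downstream difference was −11.95 points in WT + 2HG, where 7.37% of coding genes had a lower one, and −17.73 in CLPP-KO, where 1.76% did.

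Ogdh (chromosome 11, 6241551 to 6309233, plus strand) had 1 peak in each list, inside which the gene Gm72270 also starts. It spanned 1037 bp in WT, 946 bp in the 2HG-treated cells and 1021 bp in CLPP-KO and covered 26, 27 and 27 of its 30 starts. The percentile was 67.0 in WT, 66.3 after 2HG treatment and 71.4 in CLPP-KO. The difference in CLPP-KO, 4.38 points, was the only positive one there, and it was −2.20 when genes were ranked only among the 11021 coding genes with a promoter peak in all 3 lists.

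**Figure D3:**
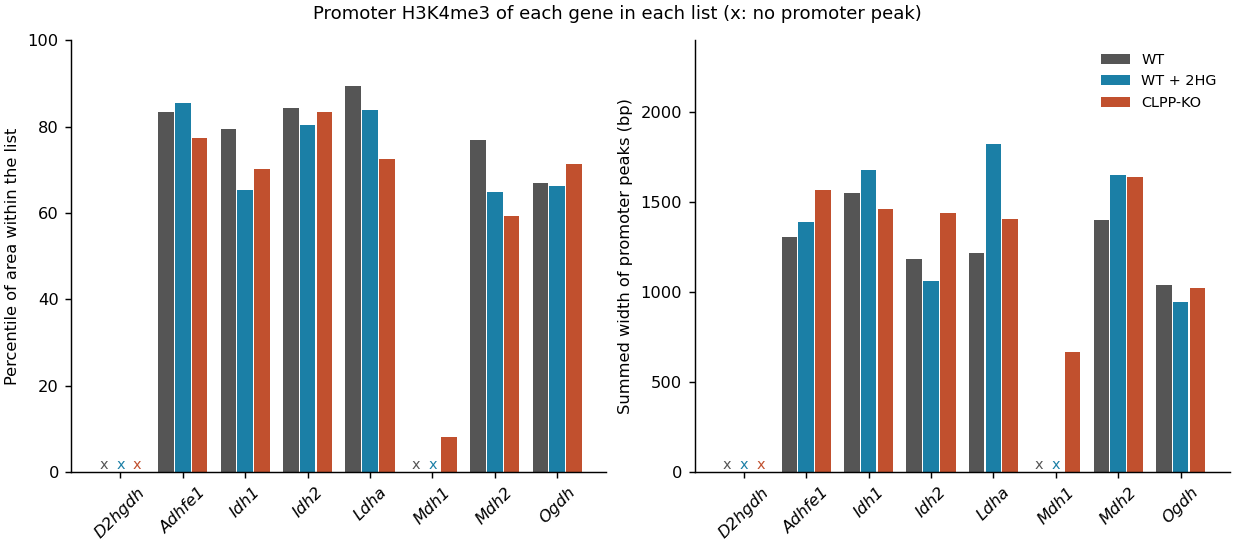
Area percentile within the list (left, y axis) and summed width of promoter peaks in bp (right, y axis) of each gene in the 3 lists, 1 bar per list, with an x where there was no promoter peak. Ldha goes from 89.4 to 72.6 and Mdh2 from 76.9 to 59.2 between WT and CLPP-KO, while the Ldha peak is widest in WT + 2HG at 1821 bp.

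Across the 6 genes with a peak in every list, the percentile was lower than in WT for 5 in WT + 2HG, all except Adhfe1, and for 5 in CLPP-KO, all except Ogdh. The median difference was −4.85 points in the 2HG-treated cells and −7.49 in CLPP-KO. Over all coding genes with a peak in both lists, 64.4% had a higher percentile after 2HG treatment and 69.8% in CLPP-KO, with median differences of 3.69 and 5.27 points. The counts of the 6 include Adhfe1 through a peak on Rrs1, Idh1 through a peak on Pikfyve and Mdh2 through its downstream peak alone. Among the 5 genes with a peak covering a start of their own in every list, 5 were lower after 2HG treatment, with a median of −4.05 points, and 63.5% of coding genes were higher by that rule. In CLPP-KO 3 of these 5 were lower and 2, Idh1 and Ogdh, were higher, with a median of −1.08 points, and 69.2% of coding genes were higher. The treated lists hold 14059 and 15118 peaks against 12342 in WT. Their median areas were also larger, 5027 and 5744 against 2970, and so was the strongest-peak area of all 6 genes in both. A lower percentile here is a lower rank within the list and not a smaller area. With each list reduced to its 12342 strongest peaks, 5 of the 6 genes were lower after 2HG treatment, against 50.2% of coding genes, and 6 in CLPP-KO, against 52.7%. Those shares cover coding genes of any WT percentile, while the 6 genes started high. For the reduced lists, the share among genes that started equally high was not computed. With the full lists, 3074 coding genes had a WT percentile in the range of the 6, 67.0 to 89.4. Their median difference was 0.48 in the 2HG-treated cells and 1.95 in CLPP-KO, with 47.9% and 41.7% lower. In CLPP-KO, the share of those genes with a lower difference was 4.03% for Mdh2, 4.68% for Ldha, 14.5% for Idh1 through its Pikfyve peak, 22.4% for Adhfe1, 37.9% for Idh2 and 61.2% for Ogdh. In WT + 2HG it was 10.6% for Idh1 through that peak, 13.6% for Mdh2, 27.3% for Ldha, 32.6% for Idh2, 44.8% for Ogdh and 57.0% for Adhfe1. Both comparisons share the WT list, so their agreement in direction is not independent.

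**Figure D4:**
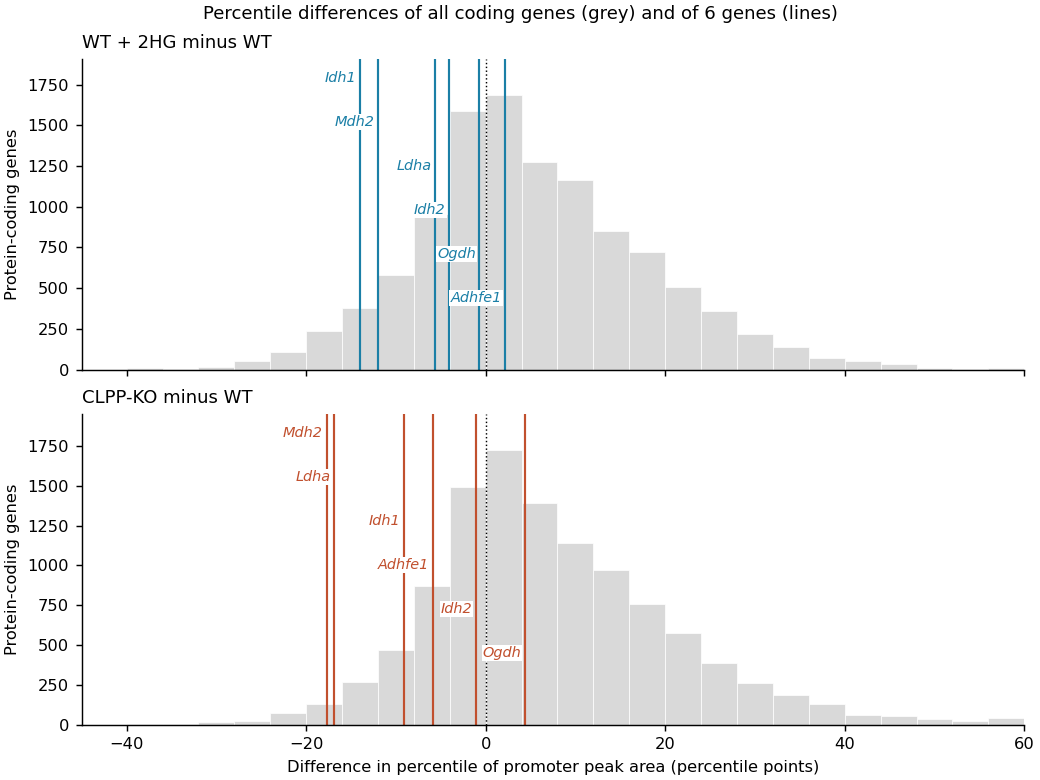
Difference in area percentile between a treated list and WT (x axis, percentile points) over all coding genes with a promoter peak in both lists (grey, number of genes on the y axis) and for the 6 members with one (lines). The outermost bars also hold any larger difference. In CLPP-KO, Mdh2 at −17.73 and Ldha at −16.85 lie in the lower tail, while the median of all genes is 5.27.

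Peak widths did not follow the percentiles. The summed width was larger than in WT for 4 of 6 genes in WT + 2HG (Adhfe1, Idh1, Ldha and Mdh2), against 73.3% of coding genes. It was also larger for 4 of 6 in CLPP-KO (Adhfe1, Idh2, Ldha and Mdh2), against 72.7%. The median difference was 103.0 bp after 2HG treatment and 211.5 bp in CLPP-KO, beside 110.0 and 105.5 bp over all coding genes. These counts were close to the background shares. The Adhfe1 width is that of the peak on Rrs1 starts, and the Idh1 and Mdh2 sums include the peaks on Pikfyve and Styxl1. For Idh1, the peak on its own starts was 577 bp in WT and 589 bp in CLPP-KO. With the canonical start only, the number of wider genes was 5 in CLPP-KO and remained 4 in WT + 2HG.

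The genes most like the members in their 3 percentiles were taken from all coding genes with a peak in every list. Idh1, through its stronger upstream peak, was closest to Pdss1, a subunit of the enzyme that makes the coenzyme Q side chain, with a summed absolute difference of 0.635 points. Ogdh was closest to Dgkz, a diacylglycerol kinase, at 1.17 points. The peak assigned to Adhfe1 was closest to that of Gapdh, the glycolytic dehydrogenase, at 1.64 points.

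The surrounding pathway was described with 45 further genes. Of these, 38 had a promoter peak in WT, 39 in the 2HG-treated cells and 39 in CLPP-KO, and 38 in all lists. The shares of all coding genes were 51.3, 56.4 and 58.2% in the respective lists. Of all 21770 coding genes, 11021 had a promoter peak in all 3 lists and 8838 in none. Like D2hgdh, 6 had none in any list: Etfb, the second subunit of the electron transfer flavoprotein that takes electrons from D2HGDH, and 5 paralogues of members, Ldhb, Ldhc, Ldhal6b, Ldhd and Mdh1b. Etfb and Mdh1b each held 17 CG in the window of 300 bases, more than 64.5% of coding genes and above the median of 11. Ldhb held 6, Ldhc 8, Ldhal6b 8 and Ldhd 9. Gpt, an alanine aminotransferase that interconverts 2-oxoglutarate and glutamate, had a peak in both treated lists, at percentiles 24.2 after 2HG treatment and 19.5 in CLPP-KO, and none in WT. All 11 genes listed as the rest of the citric acid cycle and both further subunits of the 2-oxoglutarate dehydrogenase complex were marked in every list. That group of 11 holds Aco1 and leaves out Idh3a, Idh3b and Idh3g, which were listed as paralogues and were also marked in every list.

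Phgdh, the serine synthesis enzyme that can also reduce 2-oxoglutarate to d-2HG, stood at percentiles 67.9 in WT, 79.4 in the 2HG-treated cells and 71.5 in CLPP-KO. Etfa, the other flavoprotein subunit, stood at 72.5, 86.2 and 80.1, and Aldh5a1, which oxidizes the succinic semialdehyde that ADHFE1 produces, at 51.0, 67.6 and 72.1. All 3 had higher percentiles in both treated lists than in WT, and they were picked as examples after their values were seen. Ranked only among genes marked in all lists, Phgdh was lower in CLPP-KO, at 56.5 against 59.7 in WT. Over the 38 pathway genes marked in all lists, the percentile was higher for 24 and lower for 14 in WT + 2HG, and higher for 25 and lower for 13 in CLPP-KO, near the background shares. The median difference was 3.47 points after 2HG treatment and 3.34 in CLPP-KO. Ranked among genes marked in all lists, more pathway genes were lower than higher, 22 to 16 in WT + 2HG and 24 to 14 in CLPP-KO, so these directions depend on the scaling.

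**Figure D5:**
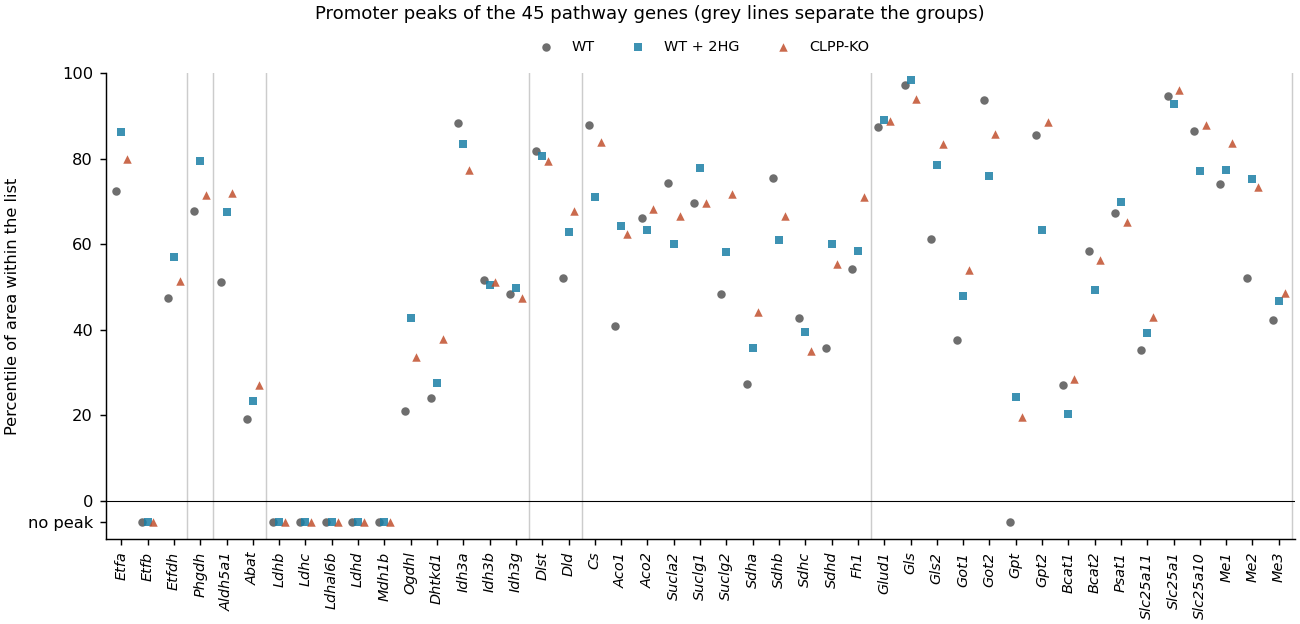
Area percentile within the list (y axis) of the 45 pathway genes (x axis), with a circle for WT, a square for WT + 2HG and a triangle for CLPP-KO, and genes without a promoter peak on the lowest level. From left to right the groups are electron acceptors, Phgdh, partners of ADHFE1, paralogues of members, the rest of the 2-oxoglutarate dehydrogenase complex, the rest of the citric acid cycle, and 2-oxoglutarate supply and transport. The genes unmarked in all 3 lists are Etfb and 5 paralogues, and Gpt is unmarked in WT alone.

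Clpp itself had a promoter peak in all 3 lists, 661 bp in WT, 664 bp in the 2HG-treated cells and 629 bp in CLPP-KO, at percentiles 39.9, 45.2 and 43.4, which does not check a deletion inside the gene. Of 13 adipocyte markers, 3 had a promoter peak in WT, 6 after 2HG treatment and 7 in CLPP-KO. The background for these and the following marker counts is the share of marked coding genes. It was 51.3% for WT, 56.4% for the 2HG-treated cells and 58.2% for CLPP-KO. Among coding genes lacking a WT peak, 11.6% acquired one with 2HG treatment and 14.9% did so for CLPP-KO. Prdm16, Pparg and Cebpa were marked in every list, Cidea, Plin1 and Lpl in the treated lists, Ebf2 in CLPP-KO, and the defining markers Ucp1, Fabp4 and Adipoq in none. Of 5 preadipocyte or fibroblast markers, 4 were marked in WT, 4 in the 2HG-treated cells and 5 in CLPP-KO, of 4 muscle markers only Myod1 and Pax7, in CLPP-KO alone, and of 3 endothelial and 4 immune markers none. The differences in these markers accompany the treated lists in which the members were compared, and their part in the members' values was not tested.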

How the data were processed

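H3K4me3 ChIP–seq had been performed in 12 samples (4 per condition) with 3 inputs. The authors trimmed reads with fastp 0.23.4, mapped them with BWA 0.7.17 to GRCm39 and called peaks with Genrich 0.6.1, tools whose versions come from the submitters' processing notes, which also name deepTools 3.5.4. Genrich combined the 4 samples of a condition, with its input as control. The deposited lists give each peak a signal (area under the curve), a summit −log10 p-value and a summit position, not scaled between lists. They hold no read counts, so the depth behind each peak could not be taken from them. How the authors' area and significance thresholds act on weak peaks could decide presence.

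Starts were those of GENCODE M39 (78289 genes). Percentiles were computed within each list, widths of a gene's promoter peaks were summed, and the strongest peak gave the percentile. Presence, width and percentile differences are descriptions, and no test was run because each condition has 1 list. Peak names and ends were checked against GRCm39, with 0 misfits. Promoter sequence was read from the GRCm39 genome. Overlaps were tested on simulated data and against bedtools. Python 3.11.15, numpy 2.4.6, pandas 2.3.3 and matplotlib 3.10.9 were used.

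The members and lists were chosen with earlier results of these data known. Named genes were the 8 members, Clpp, genes sharing a peak with a member or nearest to a member without one, the most alike gene for 3 members, and pathway genes that were unmarked or differed in presence plus 3 examples. A gene of the pathway list is not reported here and was left out of its counts. The coding genes in the members' WT percentile range, and the counts for peaks that cover a start, were added after seeing the data. Alternatives changed the window, starts, assignment, thresholds, list size and percentile measure. Read density, inputs and transcriptomes were not analysed here.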

Additional observations from a re-analysis of the deposited data

How the results depend on the processing

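The numbers of members with a promoter peak, lost, or with a wider peak stayed within 1.5 times their reported values under every alternative run for each of them, including 2 chosen after seeing the data (a peak that covers a start, and the canonical start only). The gain of Mdh1 in CLPP-KO did not: the number gained was 0 with a summit −log10 p of at least 5, with an area of at least 1000 and with lists of 12342 peaks each, by construction, since its peaks were among the weakest. Of 80 recomputed percentile differences, 37 stayed within 1.5 times their reported value in the same direction, 32 moved further in the same direction or shrank, and 11 changed sign. Most of the 37 could not differ, because the alternative kept the same strongest peak and so repeated the reported value. This held for Idh2, Ldha, Mdh2 and Ogdh with the nearest start, a covered start or the canonical start, and for Adhfe1 with the canonical start. The 37 are therefore no measure of stability. The CLPP-KO difference of Idh1 changed sign to 3.58 by the summit p, to 1.05 by area divided by width, and to 7.32 with the nearest start, with a peak covering a start and with the canonical start. With peaks that cover a start, the median difference over the members in CLPP-KO was −1.08 in place of −7.49. The Idh2 difference became 7.26 in WT + 2HG by area divided by width and 6.73 in CLPP-KO by the summit p. The Ogdh difference became 13.82 (summit p) and 11.09 (area divided by width) in the treated wild-type cells, and −2.06 in CLPP-KO with equal-sized lists and −2.20 among genes marked in all lists. The cause of the remaining changes was not tested. The differences of Ldha and Mdh2 were negative in both comparisons under each alternative. For both genes the nearest-start, covered-start and canonical-start rules repeated the reported values by construction. Only the alternatives that changed the percentile measure or the list size could have differed. However, no percentile alternative joined the 2 flanking peaks of Mdh2, so each Mdh2 value describes only 1 of them per list. Its percentile with the peaks joined was not computed. No paired analysis was possible because the 4 samples of each condition, which share replicate numbers, were pooled into 1 list, and for the same reason no sample could be left out.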
